A study of Equus caballus with 28 samples.

Results

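The imprinted DLK1-DIO3 locus carries one of the largest microRNA (miRNA) clusters of the mammalian genome, and 47 of the 844 mature miRNAs counted in this horse data set bear a name from it. They were taken by name: every known horse miRNA called eca-miR- followed by 1 of 39 numbers that belong to the cluster, with any letter or arm suffix. A name was found for 36 of the 39 numbers, and miR-654, miR-665 and miR-668 were not analysed here. The 844 miRNAs comprised 690 known and 154 predicted ones, and all 47 members were among the known.

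Imprinted genes are read from only the maternal or only the paternal chromosome. At the DLK1-DIO3 locus the paternal copy gives the protein-coding genes DLK1, RTL1 and DIO3, whereas the maternal copy gives long noncoding RNAs such as MEG3 and, processed from long transcripts of the same strand, the miRNAs. The locus is known from work in mice for its part in growth of the fetus and placenta, and its miRNAs are abundant in embryonic, placental, neural and mesenchymal cells and scarce in many differentiated epithelia and blood cells. The miRNAs fall into an upstream group, from miR-493 to miR-136 around the antisense strand of RTL1, and a larger downstream group, from miR-379 to miR-656.

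All 47 names matched a gene in the RefSeq annotation of the horse assembly TB-T2T, and 45 of them lay between DLK1 and DIO3, where they corresponded to 41 of the 48 annotated precursors. The exceptions were eca-miR-493a and eca-miR-544b, neither of which received a read. In this annotation the order began with eca-miR-493b, eca-miR-431, eca-miR-433, eca-miR-127, eca-miR-432, eca-miR-136 and eca-miR-370, continued with eca-miR-379, eca-miR-411, eca-miR-299 and eca-miR-380, and ended with eca-miR-409, eca-miR-412, eca-miR-369, eca-miR-410 and eca-miR-656. With eca-miR-370 counted in it, the upstream group held 8 members and the downstream group 39.

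The study asked which miRNAs take part in the exchange between mare and conceptus at the time when the embryo must be recognised, 13 days after ovulation. Small RNA of 5 Warmblood mares was sequenced in 28 libraries from 6 sample groups, and the mares were sampled in a pregnant and in a cyclic (not inseminated) cycle, with ovulation induced by human chorionic gonadotropin (hCG) in both. The groups were pregnant endometrium (a biopsy of the uterine lining, n = 5), cyclic endometrium (n = 4), pregnant uterine fluid (UF, collected with a tampon, n = 5), cyclic UF (n = 4), embryo (the tissue of the conceptus after removal of its capsule, n = 5) and yolk sac (YS) fluid drawn from the same conceptuses (n = 5). The cyclic samples of mare 5 were not used. The labels give a replicate number, and libraries with the same number were taken to come from the same mare. Fluids and tissues were extracted with different kits, so kit and compartment cannot be told apart in any comparison of a fluid with a tissue.

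The libraries held between 4352 and 590593 miRNA reads. Pregnant endometrium had 280065 to 590593 reads, cyclic endometrium 61836 to 371630, pregnant UF 79173 to 152860, cyclic UF 62087 to 226308, embryo 28204 to 44768 and YS fluid only 4352 to 14531. Levels are given in CPM, the reads of a miRNA per 1000000 miRNA reads of the library. The tissues carried the markers of their labels: 8 miRNAs of the early embryo summed to at most 9.97 CPM in endometrium and 32.2 CPM in UF, against 12020 to 65295 CPM in the embryos and 34891 to 264130 CPM in YS fluid. YS fluid 2 stood apart both in this sum, in which it was the highest, and in the members, so results for YS fluid are given with and without it.

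The members received 17593 of the 4313783 reads. A read was found for 42 of them, at least 10 reads for 36 and at least 100 reads for 15, while eca-miR-412, eca-miR-493a, eca-miR-541, eca-miR-544 and eca-miR-544b had none. The 6 most counted members, eca-miR-127 (4343 reads), eca-miR-379 (3728), eca-miR-411 (2379), eca-miR-409-3p (1550), eca-miR-432 (1340) and eca-miR-369-3p (1013), took 81.6% of the member reads. Both groups of the cluster were represented, with 6218 reads in the upstream and 11375 in the downstream group.

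As a sum, the members were high in all endometrium libraries, low in UF and embryo, and spread widely in YS fluid. In pregnant endometrium they summed to 7023, 3648, 5268, 3567 and 6959 CPM in mares 1 to 5 (5293 ± 1692, mean ± SD), and in cyclic endometrium to 5207, 8009, 6614 and 5140 CPM in mares 1 to 4 (6243 ± 1359). Pregnant UF held 59.4, 686, 236, 409.7 and 1061 CPM (490 ± 394) and cyclic UF 493.5, 711, 161 and 231 CPM (399 ± 253). Every endometrium library thus lay above every UF library.

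The embryos held 284, 313, 249, 1143 and 507 CPM (499 ± 374), again below every endometrium library and overlapping the range of UF. The fluid of their own yolk sacs held 4878, 33691, 1760.3, 3447 and 1032 CPM (8962 ± 13905). Within each of the 5 conceptuses the fluid exceeded the tissue, by 2.04- to 108-fold, but the YS fluid values rest on 37, 487, 23, 15 and 15 reads. YS fluid 2 gave 3.37% of its reads to the members (Wilson 95% interval 3.09 to 3.68%), and without it YS fluid overlapped the range of endometrium and that of UF. The ratio of the YS fluid sum to that of pregnant endometrium was 0.695, 9.23, 0.334, 0.966 and 0.148 in mares 1 to 5. It was above 1 in 1 of the 5 mares.

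**Figure D1:**
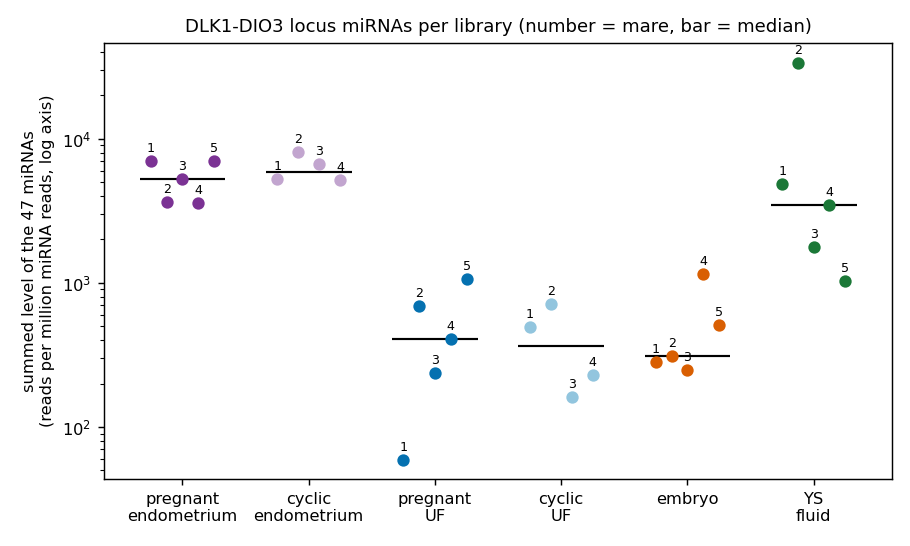
Summed level of the 47 DLK1-DIO3 members in CPM (log axis) in each of the 28 libraries, by sample group, with points numbered by mare and the group median as a line. The endometrium libraries lie between 3567 and 8009, UF and embryo between 59.4 and 1143, and YS fluid spans 1032 to 33691.

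In biopsies and fluids, fewer cells of a type and less RNA per cell cannot be told apart. Intervals and limits for a count of 0 cover counting error only, since the reads carried no molecular identifiers, and p-values measure the spread between libraries.

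Of the upstream group, eca-miR-127 was the most counted. It is transcribed antisense to RTL1, a retrotransposon-derived gene needed for the capillaries of the mouse placenta, and pairs with its mRNA without mismatch. It held 1532, 819.6, 1053, 1082 and 1715 CPM in pregnant endometrium and 1035, 2056, 2153 and 1670.3 CPM in cyclic endometrium. With means of 1240 ± 370 and 1729 ± 507 CPM it ranked 59th of all 844 miRNAs in pregnant and 47th in cyclic endometrium. In pregnant UF it held 14.8, 151, 32.7, 24.1 and 253 CPM, in cyclic UF 178, 198.8, 16.1 and 35.9 CPM, and in the embryo 106, 67.0, 0, 104 and 121 CPM. YS fluid held 264, 1176, 306, 229.8 and 206 CPM, with every library above every embryo and an overlap with both pregnant endometrium and pregnant UF. The YS fluid values rest on 2, 17, 4, 1 and 3 reads and the embryo values on 3, 3, 0, 3 and 5 reads.

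eca-miR-432, which also lies opposite RTL1, was less abundant in endometrium, at 552, 275, 538, 257 and 201 CPM in pregnant and 469, 545, 406 and 269 CPM in cyclic mares. It reached 14.8 to 75.8 CPM in pregnant UF and 25.7 to 70.7 CPM in cyclic UF. Among the embryos it was 0, 22.3, 0, 139 and 72.5 CPM, whereas YS fluid held 1318, 7264, 459, 919 and 138 CPM, on 10, 105, 6, 4 and 2 reads. The lowest YS fluid library was thus close to the highest embryo, 139 CPM, and the other 4 were above all embryos and all UF libraries.

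eca-miR-136, another miRNA opposite RTL1, held 84.3, 32.5, 28.8, 96.4 and 257 CPM in pregnant endometrium. In cyclic endometrium it was 48.5, 206, 99.6 and 75.4 CPM. It had no read in 3 of 5 pregnant UF, 2 of 4 cyclic UF, 4 of 5 embryo and 4 of 5 YS fluid libraries.

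Of the downstream group, eca-miR-379, the first miRNA of that group along the locus, was nearly level with eca-miR-127. It held 1759, 802, 1449, 789 and 1306 CPM in pregnant endometrium and 1294, 1422, 1407 and 887 CPM in cyclic endometrium. In the other compartments it was 7.42 to 167 CPM in pregnant UF, 25.7 to 97.2 CPM in cyclic UF, 27.6 to 104 CPM in the embryo, and 264, 1799, 153, 229.8 and 206 CPM in YS fluid. The means in pregnant endometrium of eca-miR-127 and eca-miR-379 (1221 ± 421 CPM) differed by less than their spread over mares.

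eca-miR-411, the neighbour of eca-miR-379, came next in endometrium with 863, 695, 650.2, 293 and 1313 CPM in pregnant and 825, 1276, 791 and 585.5 CPM in cyclic mares. In the conceptus it was uneven: embryo 4 held 312 CPM (9 reads), embryo 3 held 27.6 CPM and the other embryos none, while YS fluid held 264, 1729.5, 76.5, 0 and 0 CPM.

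eca-miR-409-3p, from near the downstream end of the cluster, was found in all 28 libraries, as was eca-miR-379. It held 773, 346, 405, 225 and 406 CPM in pregnant endometrium and 469, 668, 549 and 553 CPM in cyclic endometrium. It was 7.42, 50.2, 58.9, 84.4 and 101 CPM in pregnant UF, 74.6, 92.8, 16.1 and 51.3 CPM in cyclic UF and 35.5, 22.3, 27.6, 34.6 and 72.5 CPM in the embryo. YS fluid held 396, 4635, 153, 459.6 and 206 CPM, all above every UF library and every embryo. These YS fluid values rest on 3, 67, 2, 2 and 3 reads and the embryo values on 1, 1, 1, 1 and 3 reads.

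eca-miR-369-3p followed in endometrium with 389.5, 127.2, 295, 271 and 739.6 CPM in pregnant and 210.2, 462, 304 and 269 CPM in cyclic mares. In the conceptus it had a read only in embryos 3 and 4 (82.9 and 104 CPM) and in YS fluid 2 alone (277 CPM). The remaining 9 members with at least 100 reads had group means between 30.8 and 172 CPM in pregnant endometrium, eca-miR-487b being the highest of them and eca-miR-543 the lowest.

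**Figure D2:**
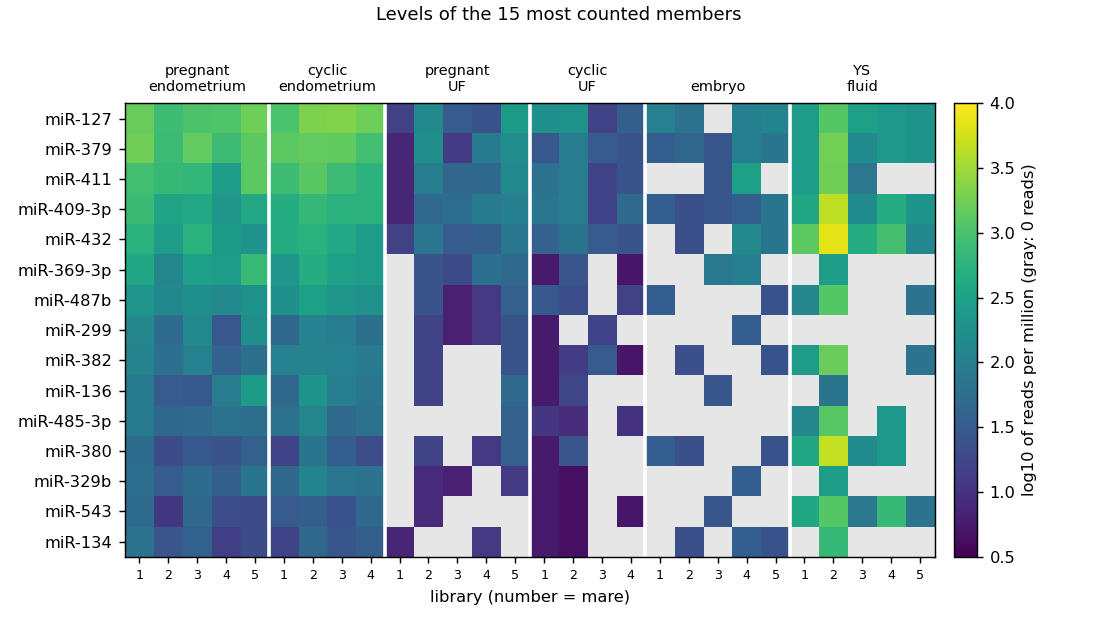
Heat map of the level of the 15 members with at least 100 reads (from the most counted at the top) in each of the 28 libraries (columns, by group and mare), coloured by the log10 of CPM, with gray for 0 reads. The endometrium columns have a read for every member shown, UF, embryo and YS fluid have gray cells for most members, and the column of YS fluid 2 (7264 CPM for eca-miR-432, 4773 for eca-miR-380) is brighter than those of the other YS fluids.

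Pregnancy status moved no member past the threshold in endometrium. A difference was called when it was at least 2-fold and its false discovery rate (FDR, by the Benjamini-Hochberg method over all miRNAs tested) did not exceed 0.05 in edgeR's quasi-likelihood test, here with the mare as a block. Among all 386 miRNAs tested 3.37% were called, and of 36 members tested 0. At an unadjusted p of 0.05 the count was also 0; under the alternatives it ranged up to 4, reached without mare 1, with 2 when libraries were scaled by their totals only or thinned and 1 by the likelihood ratio test, and DESeq2 called 0 as well.

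Without passing the test, 27 of the members had a lower and 9 a higher value in pregnant mares, with a median log2 fold change of -0.29, against 0.08 for all miRNAs (-0.52 and -0.15 with library totals only). This split depended on the fit: with no replicate block 20 were lower and 16 higher, with medians of -0.04 for the members and 0.16 for all miRNAs, and without mare 2 21 were lower and 16 higher. eca-miR-127 differed by -0.41 (SE 0.28, FDR 0.583), eca-miR-411 by -0.29 (SE 0.30, FDR 0.778), eca-miR-409-3p by -0.29 (SE 0.33, FDR 0.801) and eca-miR-379 by 0.10 (SE 0.28, FDR 0.94) on the log2 scale. The sum over the members was higher in the pregnant cycle in 1 of the 4 mares sampled in both, with pregnant to cyclic ratios of 1.35, 0.456, 0.796 and 0.694.

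In UF, where 4.92% of 305 miRNAs were called between pregnant and cyclic mares, 0 of 16 members tested were called, again 0 at an unadjusted p of 0.05 and 0 by DESeq2. eca-miR-127 differed by -0.87 (SE 0.65, FDR 0.704), eca-miR-379 by 0.47 (SE 0.67, FDR 0.914), eca-miR-409-3p by -0.28 (SE 0.63, FDR 0.975) and eca-miR-411 by -0.02 (SE 0.63, FDR 0.999). The summed level was 0.120, 0.965, 1.46 and 1.77 times that of the cyclic sample in mares 1 to 4, so its direction differed between mares. The standard errors of these 4 differences were 0.63 to 0.67 log2 units. An interaction term compared the effect of pregnancy in UF with that in endometrium, and in it 1.69% of 415 miRNAs were called and 0 of 36 members, with 1 member at an unadjusted p of 0.05 and 0 called by DESeq2. For eca-miR-409-3p this difference was -0.11 (SE 0.70, FDR 1).

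Between endometrium and the uterine fluid that bathes it, most of the members tested were lower in the fluid. In pregnant mares 25 of 30 members tested were called, all lower in UF, where 20.1% of all 359 miRNAs were called lower and 33.7% in either direction. In cyclic mares 25 of 29 were called, all lower, where the background was 18.9% lower and 30.8% in either direction. A member entered the test with at least 1 CPM in as many libraries as the smaller group has, which endometrium alone could supply, so these counts describe the members tested and not all 47. Their median log2 fold change was -3.48 in pregnant and -3.62 in cyclic mares, against -0.12 and -0.24 for all miRNAs, and with library totals only 24 and 23 members were called, all lower.

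Of the leading members, eca-miR-379 was lower in pregnant UF by a log2 fold change of -4.05 (SE 0.62, FDR 0.000221), eca-miR-127 by -3.95 (SE 0.58, FDR 0.000165) and eca-miR-411 by -3.69 (SE 0.56, FDR 0.00019). eca-miR-369-3p differed by -3.80 (SE 0.65, FDR 0.000488), eca-miR-432 by -3.17 (SE 0.50, FDR 0.000274) and eca-miR-409-3p by -3.05 (SE 0.52, FDR 0.000454). In the cyclic mares the same 6 members were called, with eca-miR-369-3p at -5.0 (SE 0.73, FDR 0.000116), eca-miR-379 at -4.94 (SE 0.56, FDR 1.22e-05), eca-miR-411 at -4.26 (SE 0.58, FDR 8.96e-05) and eca-miR-127 at -4.22 (SE 0.65, FDR 0.000174). eca-miR-432 and eca-miR-409-3p had the smallest differences of the 6, -3.47 (SE 0.55, FDR 0.000242) and -3.39 (SE 0.54, FDR 0.000242). Each of these calls held under every alternative processing tried.

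Within mares the sum over the members was 5.32 to 118 times higher in pregnant endometrium than in the UF of the same mare, and 10.6 to 41.1 times higher in cyclic endometrium. Libraries were wholly separated, every endometrium above every UF, for 13 of the 15 members with at least 100 reads in pregnant mares, all but eca-miR-136 and eca-miR-380. The share was 13.9% among all miRNAs with a read and 18.1% among those with at least 100 reads. In cyclic mares the separation held for 14 of 15, all but eca-miR-380, where these shares were 13% and 17%. The members reached 100 reads mostly through endometrium, which favours a separation in this direction, so these counts are a description.

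eca-miR-380, named here after its values were seen, was the member with at least 100 reads that was not called in either pair. It held 20.7 to 55.2 CPM in pregnant endometrium against 0, 16.7, 0, 12.1 and 37.9 CPM in UF, a log2 fold change of -1.68 (SE 0.74, FDR 0.0851). In cyclic mares it held 16.2 to 73.1 CPM in endometrium against 5.74, 26.5, 0 and 0 CPM in UF, -2.21 (SE 0.87, FDR 0.0694).

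Marker miRNAs of some cell types were also lower in UF. Of 7 miRNAs typical of stromal and smooth muscle cells, 6 were called lower in pregnant UF (median -2.99) and 7 in cyclic UF (median -4.27), and both endothelial miRNAs were lower in each. The stromal miRNAs summed to 17516 to 56910 CPM in pregnant endometrium and 364 to 8071 CPM in pregnant UF, and to 24274 to 38442 CPM and 789 to 3796 CPM in cyclic mares. Per stromal read the members numbered 0.122 to 0.266 in pregnant endometrium and 0.0937 to 0.171 in pregnant UF, and 0.203 to 0.215 and 0.169 to 0.286 in cyclic mares, ranges that overlap in both. eca-miR-199a-3p and eca-miR-199b-3p of this list had nearly the same reads, so the same reads could count for both; with only the former the ratios were 0.151 to 0.401 and 0.138 to 0.252 in pregnant and 0.278 to 0.321 and 0.253 to 0.398 in cyclic mares, and overlapped as well. Of 9 epithelial miRNAs none was called lower in UF, and 1 was called higher in pregnant and 2 in cyclic mares. Erythroid miRNAs were called lower in 3 of 4 cases in pregnant and 3 of 3 in cyclic UF, and immune miRNAs in 2 of 7 and 1 of 6. The part of cell content in the member differences was not tested.

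**Figure D3:**
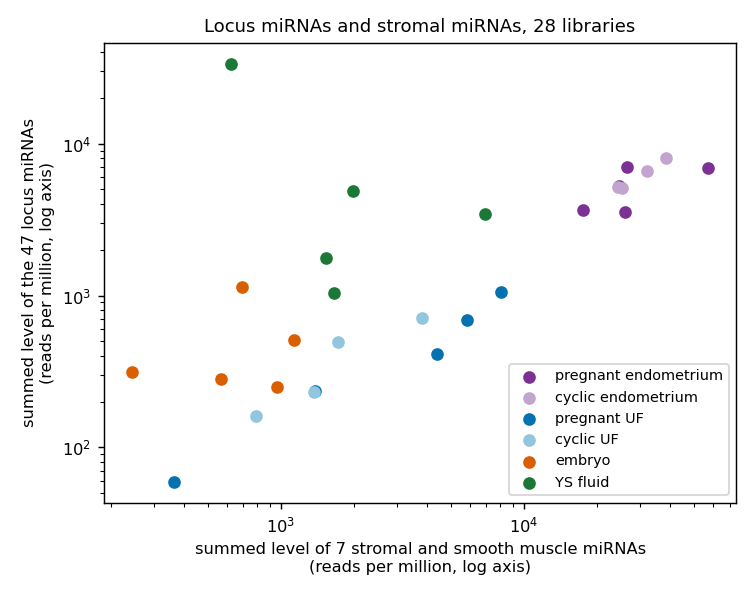
Summed level of the 47 members against that of 7 stromal and smooth muscle miRNAs in the 28 libraries, both in CPM (log axes), coloured by sample group. UF and endometrium libraries lie at 0.0937 to 0.286 member reads per stromal read, and embryo and YS fluid libraries lie at 0.257 to 54.1.

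The embryo held lower levels of most members than the endometrium of the same mares. Of 29 members tested 24 were called and all were lower in the embryo, where 42.6% of all 359 miRNAs were lower and 71.3% called in either direction. Endometrium alone could bring a member into this test, so the counts and medians describe the members tested and not all members. The 5 that were not called were eca-miR-410, eca-miR-758, eca-miR-495, eca-miR-487a and eca-miR-329a, all with fewer than 100 reads. The median log2 fold change was -4.36 for the members and -1.02 for all miRNAs. When libraries were scaled by their totals only, the median of all miRNAs moved to 0.30 and that of the members to -3.36, and 15 members were called, still all lower.

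eca-miR-379 showed a log2 fold change of -5.77 (SE 0.51, FDR 2.02e-06), eca-miR-127 of -5.28 (SE 0.64, FDR 2.04e-05) and eca-miR-409-3p of -4.81 (SE 0.54, FDR 1.15e-05). eca-miR-411 differed by -4.88 (SE 1.15, FDR 0.00295), eca-miR-369-3p by -4.59 (SE 0.97, FDR 0.00137) and eca-miR-432 by -4.36 (SE 0.84, FDR 0.000761). These calls held under all alternatives tried. eca-miR-380 had the smallest difference of the 15 members with at least 100 reads, -2.26 (SE 0.65, FDR 0.0085). eca-miR-485-3p had no read in any embryo against a mean of 61.5 CPM in pregnant endometrium, at least 3.68-fold lower when 3 reads over the 5 embryos are taken as the limit.

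Within each of the 5 mares the endometrium exceeded the embryo, by 3.12- to 24.8-fold for the sum. Separate ranges were found for 9 of the 15 members with at least 100 reads, against 21.8% of all miRNAs with a read and 29.2% of those with at least 100 reads, a minimum that the members reached mostly through endometrium (eca-miR-411, eca-miR-299, eca-miR-380, eca-miR-329b, eca-miR-543 and eca-miR-134 overlapped). Embryo 4 was the highest embryo of the sum, at 1143 CPM on 33 reads. The stromal miRNAs were lower here too, 7 of 7 called with a median of -6.96, as were 2 of 2 endothelial, 4 of 4 erythroid and 6 of 6 immune miRNAs tested, while of 9 epithelial ones 4 were higher and 3 lower. There were 0.257 to 1.65 member reads per stromal read in the embryos, against 0.122 to 0.266 in pregnant endometrium, and the part of stromal content in the difference was not tested. The embryo ratios rest on 11 to 47 stromal reads.

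Against UF of the same mares few members were called. Of 10 members tested 2 were lower in the embryo, where 38.7% of 310 miRNAs were lower and 68.4% called, a larger share than that of the members. eca-miR-379 differed by -2.05 (SE 0.81, FDR 0.0383) and eca-miR-409-3p by -1.99 (SE 0.59, FDR 0.0102). Neither was called with library totals only, with the relative log expression (RLE) size factors or by DESeq2, and the libraries of both groups overlapped for both. The median of all miRNAs moved from -0.23 to 1.18 under library totals and that of the 10 members from -1.61 to -0.18. The summed level was higher in the embryo than in the UF of the same mare in 3 of 5 mares.

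**Figure D4:**
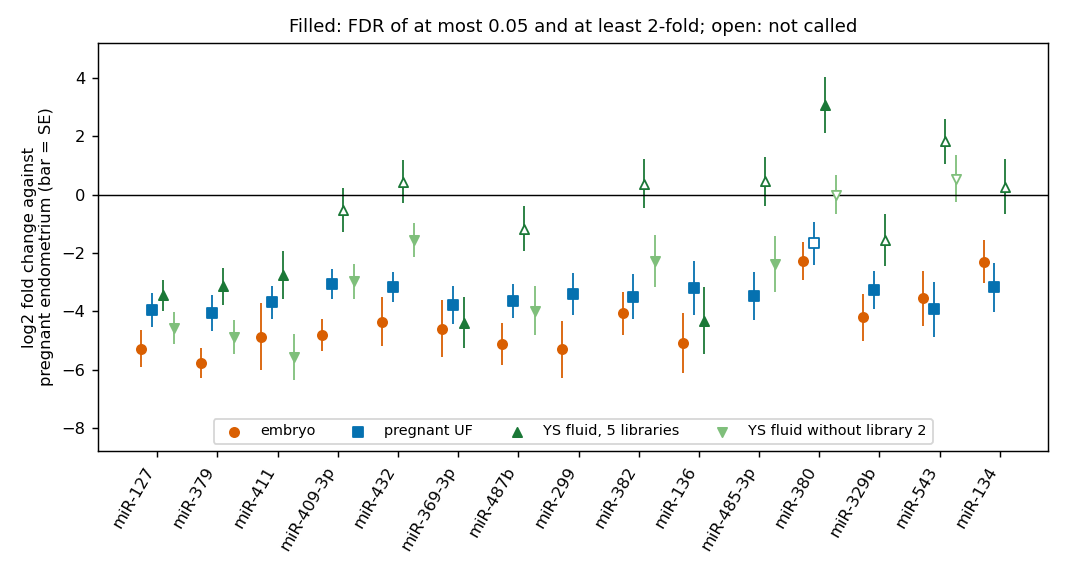
Log2 fold change against pregnant endometrium of the 15 members with at least 100 reads (from the most counted at the left) in embryo, pregnant UF, YS fluid and YS fluid without library 2, with standard errors as bars and filled symbols for called differences; members without a read in the group are not drawn. Embryo and UF points lie below 0 throughout, those of YS fluid lie on both sides, and leaving out YS fluid 2 moves each one drawn down (eca-miR-380 from 3.07 to -0.0030).

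The comparison of YS fluid with endometrium gave calls in both directions. Compared with pregnant endometrium, 9 of 30 members tested were called, 6 lower and 3 higher, where 35.2% of all 341 miRNAs were lower, 17.9% higher and 53.1% called. Here too, endometrium alone could bring a member into the test. The lower ones were eca-miR-127 (-3.45, SE 0.53, FDR 4.21e-05), eca-miR-379 (-3.15, SE 0.64, FDR 0.000592), eca-miR-411 (-2.77, SE 0.82, FDR 0.00924), eca-miR-369-3p (-4.38, SE 0.88, FDR 0.000565), eca-miR-136 (-4.32, SE 1.14, FDR 0.0046) and eca-miR-299 (FDR 0.00204). eca-miR-299 had no read in YS fluid against 131, 53.3, 149, 28.6 and 174 CPM in pregnant endometrium, at least 1.93-fold lower at 3 reads over the 5 fluids. Of these, eca-miR-127, eca-miR-369-3p and eca-miR-299 were also called lower with library totals only, whereas eca-miR-379 (-1.09, FDR 0.136), eca-miR-411 (-0.71, FDR 0.457) and eca-miR-136 (-2.40, FDR 0.132) were not.

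The 3 higher ones were eca-miR-380, eca-miR-323-3p and eca-miR-487a, of which the first 2 were not called with the mare as a block (1.22, FDR 0.238, and 1.66, FDR 0.114). eca-miR-380, of the downstream group, held 396, 4773, 153, 229.8 and 0 CPM in YS fluid (3, 69, 2, 1 and 0 reads) against 20.7 to 55.2 CPM in pregnant endometrium, a log2 fold change of 3.07 (SE 0.95, FDR 0.0121). eca-miR-323-3p held 264, 830.2, 306, 0 and 68.8 CPM against 7.14 to 40.7 CPM (2.02, SE 0.74, FDR 0.0309). eca-miR-487a held 0, 277, 76.5, 229.8 and 0 CPM against 2.96 to 7.14 CPM (2.46, SE 0.84, FDR 0.0212).

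In each of the 3 the highest fluid exceeded all endometrium libraries and the lowest was at 0 or overlapped them. Without YS fluid 2 their fold changes were -0.0030 (FDR 0.998), 0.94 (FDR 0.352) and 1.24 (FDR 0.39), no member was called higher, and 15 were called lower. With library totals only, the median of all miRNAs moved from -0.84 to 1.16 and that of the members from -0.57 to 1.47, and 11 members were called higher and 3 lower. With library totals and without YS fluid 2, 4 were higher (eca-miR-323-3p, eca-miR-380, eca-miR-487a and eca-miR-543) and 4 lower (eca-miR-127, eca-miR-369-3p, eca-miR-379 and eca-miR-411). The calls between YS fluid and endometrium thus depended on the scaling and on 1 library. Of the 9 members called, eca-miR-127 and eca-miR-369-3p were called lower in all 4 of these fits, and the others lost their call in at least 1 of them. eca-miR-379, eca-miR-411, eca-miR-136 and eca-miR-299 stayed on the lower side and eca-miR-323-3p and eca-miR-487a on the higher side in all 4, whereas eca-miR-380 did not keep its direction.

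eca-miR-409-3p changed direction with the scaling. It was not called in the comparison of YS fluid with pregnant endometrium (-0.53, SE 0.75, FDR 0.592), was lower without YS fluid 2 (-2.97, FDR 0.000168) and lay on the other side with library totals only (1.52, FDR 0.0916). Stromal miRNAs were called lower in YS fluid in 7 of 7 cases, with a median of -6.14, and summed to 623 to 6893 CPM. There were 2.47, 54.1, 1.15, 0.5 and 0.625 member reads per stromal read in the 5 fluids, all above the highest pregnant endometrium library, 0.266, and the part of cell content was not tested. These ratios rest on only 15, 9, 20, 30 and 24 stromal reads. Without eca-miR-199b-3p in the list the lowest YS fluid was at 0.625 and the highest pregnant endometrium library at 0.401. Erythroid miRNAs were called lower in 4 of 4 cases, immune in 6 of 6, endothelial in 2 of 2 and epithelial in 4 of 9.

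Compared with pregnant UF, the other fluid of the study, YS fluid held more of several members. Of 11 members tested 7 were called, all higher in YS fluid, where 23.5% of 277 miRNAs were higher and 59.2% called in either direction. YS fluid alone could bring a member into this test, so the counts and medians describe only the members tested. The median log2 fold change was 2.92 for the members and -0.54 for all miRNAs. eca-miR-543, a downstream member that was nearly absent from UF, had 396, 1176, 76.5, 689 and 68.8 CPM (3, 17, 1, 3 and 1 reads) in YS fluid against 8.37 CPM in 1 UF library and none in the others, and a log2 fold change of 5.48 (SE 1.07, FDR 0.000442). eca-miR-432 differed by 3.97 (SE 0.97, FDR 0.00262). eca-miR-323-3p, named in this comparison after its values were seen, had 8.37 CPM in 1 pregnant UF library and none in the others and differed by 4.98 (SE 1.04, FDR 0.000843).

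Leaving out YS fluid 2 kept these 3 calls, at 4.32 (FDR 0.00237), 1.90 (FDR 0.0271) and 3.90 (FDR 0.00514), and ended the other 4. eca-miR-380 changed from 5.06 (SE 1.34, FDR 0.00469) to 1.89 (FDR 0.151), eca-miR-382 from 4.06 (SE 1.26, FDR 0.0121) to 1.38 (FDR 0.389), eca-miR-409-3p from 2.92 (SE 0.98, FDR 0.0192) to 0.37 (FDR 0.715) and eca-miR-487b from 2.75 (SE 1.10, FDR 0.0423) to -0.055 (FDR 0.988). All YS fluids were above all pregnant UF libraries for 3 of the 15 members with at least 100 reads, eca-miR-409-3p, eca-miR-432 and eca-miR-543, against 15.5% of all miRNAs with a read and 22.7% of those with at least 100 reads. These 3 of 15 are near those shares, so the separation is not particular to the members. A single read is 68.8 to 229.8 CPM in a YS fluid library and 6.54 to 12.6 CPM in a pregnant UF library. With library totals only the median moved to 4.34 for the members and 1.13 for all miRNAs, and 10 members were called, all higher in YS fluid. The summed level was higher in the YS fluid than in the UF of the same mare in 4 of 5 mares.

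Between the embryo and its own YS fluid, 8 of 10 members tested were called, all lower in the embryo, where 13.1% of 259 miRNAs were lower and 35.1% called. Again YS fluid alone could bring a member into the test, so the counts and medians describe only the members tested. The median was -4.33 for the members and 0.28 for all miRNAs. Among the members named, eca-miR-380 differed by -5.31 (SE 1.47, FDR 0.0205), eca-miR-543 by -4.98 (SE 1.05, FDR 0.00458), eca-miR-432 by -4.83 (SE 1.31, FDR 0.018), eca-miR-409-3p by -4.36 (SE 1.10, FDR 0.0142) and eca-miR-382 by -4.31 (SE 1.28, FDR 0.027). eca-miR-379 differed by -2.69 (SE 0.85, FDR 0.03). The members not called were eca-miR-127 and eca-miR-411.

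Without YS fluid 2, 4 members were called, eca-miR-323-3p, eca-miR-409-3p (-1.98, FDR 0.0268), eca-miR-432 (-2.94, FDR 0.0375) and eca-miR-543 (-3.82, FDR 0.0183). eca-miR-379 became -1.09 (FDR 0.158) and eca-miR-380 -2.30 (FDR 0.0682). With library totals only the medians were -4.75 for the members and -0.32 for all miRNAs, with 9 members called, all lower in the embryo. Every YS fluid was above every embryo for 4 of the 15 members with at least 100 reads, eca-miR-127, eca-miR-379, eca-miR-409-3p and eca-miR-543, against 6.23% of all miRNAs with a read and 7.58% of those with at least 100 reads. A single read is 68.8 to 229.8 CPM in a YS fluid library and 22.3 to 35.5 CPM in an embryo library. eca-miR-127 had 2, 17, 4, 1 and 3 reads in YS fluid against 3, 3, 0, 3 and 5 in the embryos. For eca-miR-379 these were 2, 26, 2, 1 and 3 against 1, 2, 1, 3 and 3 reads. eca-miR-543 had 1 read each in YS fluids 3 and 5 and in embryo 3. The part of depth in this separation was not tested. The early embryo miRNAs did not separate the tissue from its fluid, with 0 called. Of 9 epithelial miRNAs, however, 6 were called higher in the embryo and 0 lower, with a median of 2.06. Of the few stromal, endothelial, erythroid and immune miRNAs tested, 0 were called. With the conceptus as a block, 6 members were called.

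The make-up of the cluster in YS fluid also differed in description from that in endometrium. In pregnant endometrium, of 9763 member reads, eca-miR-379 took 23.9%, eca-miR-127 22.8%, eca-miR-411 14.1%, eca-miR-409-3p 8.21%, eca-miR-432 7.49% and eca-miR-380 0.62%. In YS fluid 2, of 487 member reads, eca-miR-432 took 21.6%, eca-miR-380 14.2% and eca-miR-409-3p 13.8%, against 5.34% for eca-miR-379 and 3.49% for eca-miR-127. The other 4 fluids together, with 90 reads, gave 24.4% to eca-miR-432, 11.1% each to eca-miR-409-3p and eca-miR-127, 8.89% each to eca-miR-379 and eca-miR-543, and 6.67% to eca-miR-380. eca-miR-432 was the most counted member in 4 of 5 YS fluids, and eca-miR-127 or eca-miR-379 in all 9 endometrium libraries.

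The share of the upstream group, pooled over libraries, was 33.0% of member reads in pregnant endometrium, 39.0% in cyclic endometrium, 33.2% in pregnant UF, 40.4% in cyclic UF, 32.9% in the embryo and 33.1% in YS fluid, or 38.9% without YS fluid 2. Spearman's rho of the mean levels over the 15 members with at least 100 reads was 0.98 between pregnant and cyclic endometrium, 0.96 between pregnant endometrium and pregnant UF, 0.77 with the embryo and 0.27 with YS fluid, or 0.28 without YS fluid 2. YS fluid 2 and the other YS fluids correlated at 0.78. For YS fluid rho was 0.39 with pregnant UF, 0.59 with cyclic UF and 0.53 with the embryo, or 0.35, 0.55 and 0.38 without YS fluid 2. These are correlations across members, which are not independent replicates, and the compared groups differ in depth.

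**Figure D5:**
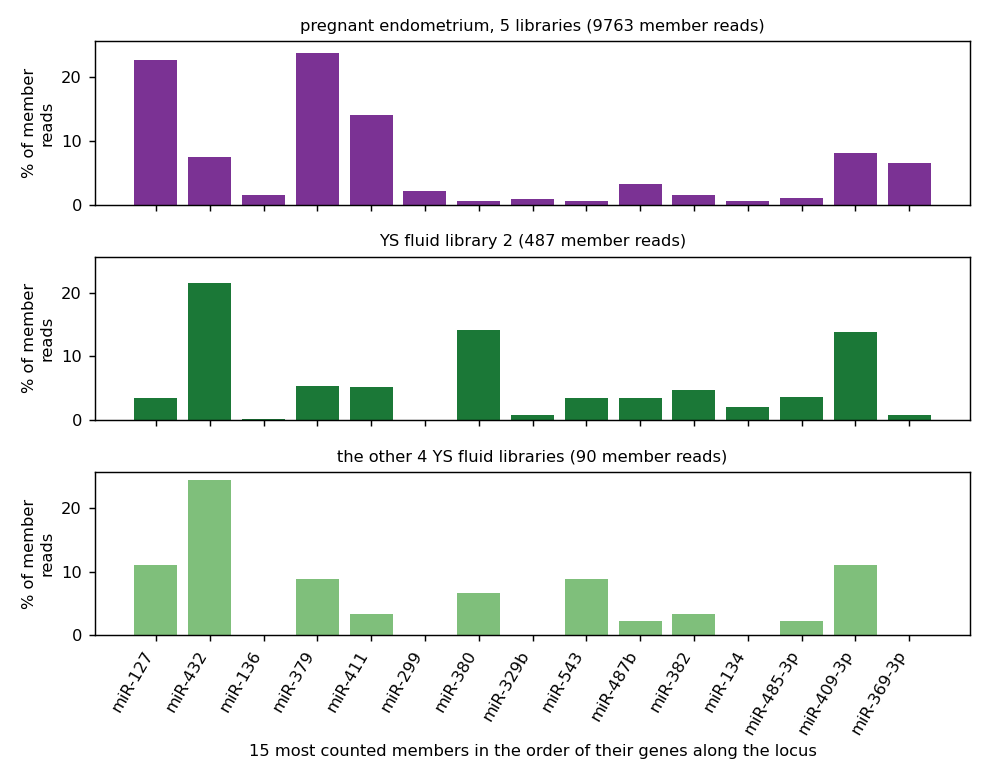
Share of member reads, in percent (bars), taken by each of the 15 members with at least 100 reads, in their order along the locus, in pregnant endometrium (9763 reads, top), YS fluid 2 (487 reads, middle) and the other 4 YS fluids together (90 reads, bottom). eca-miR-127, eca-miR-379 and eca-miR-411 have the tallest bars in endometrium, and eca-miR-432 (21.6% and 24.4%) has the tallest in both YS fluid panels.

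Depth limited how many members were seen. A read was found for 33 to 37 members in pregnant endometrium, 28 to 37 in cyclic endometrium, 6 to 16 in pregnant UF, 7 to 20 in cyclic UF, 6 to 13 in the embryo and 16, 30, 9, 9 and 8 in YS fluid. At a common depth of 4352 reads, the mean expected number was 8.50 and 9.38 in pregnant and cyclic endometrium, 1.79 and 1.5 in pregnant and cyclic UF, 1.90 in the embryo and 10.6 in YS fluid. YS fluids 1 to 5 had 12.1, 23.2, 5.18, 9.0 and 3.68, so the YS fluid mean is raised by YS fluid 2. UF and embryo had the lowest means at this common depth.

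Where both arms of a precursor were listed, the 3p arm was the more counted. The 3p and 5p arms had 1550 and 7 reads for mir-409, 1013 and 27 for mir-369, 217 and 31 for mir-485, and 68 and 5 for mir-323. Members that differ by a letter, such as eca-miR-376a, eca-miR-376b and eca-miR-376c, or eca-miR-329a and eca-miR-329b, are close in sequence and could share reads, though no 2 members had identical counts. The 27 members with 1 to 99 reads summed to a mean of 242 CPM in pregnant and 324 CPM in cyclic endometrium, 18.4 and 19.9 CPM in pregnant and cyclic UF, 93.5 CPM in the embryo and 1555 CPM in YS fluid, or 491 CPM without YS fluid 2. The 6 other known miRNAs of the locus that the naming rule left out had 8 reads in all.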

How the data were processed

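Counts of reads per mature miRNA were deposited as tables of 690 known and 154 predicted miRNAs, made by the authors from small RNA reads by adapter trimming, removal of short and low-quality reads, and mapping and counting with miRPro against miRBase and the horse genome EquCab2.0. Replicates were not pooled. The table of predicted precursors repeated the mature one in all 154 rows and was not used.

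The members and marker lists were chosen with earlier results of these data known. RefSeq names and neighbour order came from the assembly TB-T2T, and since this is not the build of the files no coordinates are given. Library preparation favours some miRNA sequences over others, so levels of different miRNAs are compared only roughly.

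Counts were tested with edgeR 4.0.16 (R 4.3.3) on all 844 miRNAs, keeping those with at least 1 CPM in as many libraries as the smaller group, with TMM scaling, glmQLFit and glmQLFTest, Benjamini-Hochberg adjustment over all tested, and an FDR of 0.05 with a fold change of 2 as threshold. Libraries of the 2 groups compared entered each fit. The mare was a block between pregnant and cyclic groups, since the same mares were sampled (mean correlation of same-mare deviations 0.21 in endometrium and 0.31 in UF, against -0.05 and -0.08 for different mares), and an alternative elsewhere. Between compartments this same-mare correlation was only -0.13 to 0.13, so the values give little support there for the matching by number. The standard error is the log2 fold change over the square root of F. DESeq2 1.42.0, other scalings and filters and the leaving out of each library were alternatives. The test was also run on simulated counts, with the same spread beyond counting error set for every miRNA. That setting does not copy YS fluid, where YS fluid 2 stood apart from the others. Levels were described for members with at least 100 reads, and fold changes for the 6 called members of most reads in each direction of a comparison, for the 4 of most reads between pregnant and cyclic samples, and for eca-miR-409-3p throughout. Depth was 4352 to 590593 reads per library, so 1 read in the smallest is 229.8 CPM.

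Figures and shares were made in Python 3.11.15 with pandas 2.3.3 and scipy 1.17.1.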

Additional observations from a re-analysis of the deposited data

Results flagged for a closer look

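In 25 of 102 sets of values, each holding the libraries of 1 group, the highest library lay far from the others by Dixon's test at the 95% level, which chance gives in about 1 set in 20 for continuous values. In 10 of the 25 every other library of the group was at 0 reads, where the test gives this result by construction and that rate does not apply. Of all 25 sets, 15 concerned YS fluid 2. It stood apart for the summed level of the members (33691 CPM), for member reads per stromal read (54.1), and for eca-miR-127 (1176 CPM), eca-miR-379 (1799 CPM), eca-miR-411 (1729.5 CPM), eca-miR-409-3p (4635 CPM), eca-miR-432 (7264 CPM), eca-miR-369-3p (277 CPM), eca-miR-487b (1176 CPM), eca-miR-382 (1591 CPM), eca-miR-136 (69.2 CPM, 1 read), eca-miR-485-3p (1245 CPM), eca-miR-380 (4773 CPM), eca-miR-329b (277 CPM) and eca-miR-134 (692 CPM).

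Embryo 4 stood apart from the other embryos for the summed level (1143 CPM), for eca-miR-411 (312 CPM), and for eca-miR-299 and eca-miR-329b (34.6 CPM each, 1 read). Embryo 5 did so for eca-miR-409-3p (72.5 CPM), and embryo 3 for eca-miR-136 and eca-miR-543 (27.6 CPM each, 1 read). In UF the libraries standing apart were cyclic UF 2 for eca-miR-379 (97.2 CPM), pregnant UF 5 for eca-miR-485-3p (37.9 CPM) and pregnant UF 2 for eca-miR-543 (8.37 CPM, 1 read).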

How the results depend on the processing

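Depth and YS fluid 2 set the limits of these results: a member in YS fluid rests on few reads, and the direction of many differences in YS fluid changes with that library or with the scaling. The 51 fold changes named in the text gave 992 values under the alternatives, of which 902 kept direction and side of the threshold, 61 kept the direction but were no longer called, 2 became called and 27 changed sign. The values no longer called all concerned YS fluid or the embryo against UF. The cause was not tested where a value changed.

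Of the counts of members called, 24 in the embryo against pregnant endometrium became 15 with library totals only, 7 with edgeR's filterByExpr and 9 with libraries thinned to the smallest. The 25 in pregnant UF became 8 with filterByExpr and 15 when thinned, and the 25 in cyclic UF became 12 and 15. The 9 in YS fluid against endometrium became 14 with library totals only, 5 with filterByExpr and 2 when thinned. The 2 in the embryo against UF became 0 with RLE size factors, 0 with library totals only, 0 with DESeq2, and 1 each without a filter, with known miRNAs only and when thinned. The 7 in YS fluid against UF became 15 without a filter, 0 with filterByExpr, 15 in a fit of all 28 libraries and 1 when thinned. The 8 in the embryo against YS fluid became 18 in the fit of all 28 libraries and 1 when thinned. filterByExpr left no member in the embryo against UF or against YS fluid. Library totals and leaving out YS fluid 2 together was an alternative chosen after seeing the data.

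Leaving out 1 library or mare at a time gave 0 to 0 called members between pregnant and cyclic endometrium, 0 to 0 in UF and 0 to 0 for their difference, 23 to 26 in the embryo and 21 to 27 in pregnant UF against endometrium, 19 to 23 in cyclic UF, and 9 to 15 in YS fluid against endometrium (15 without YS fluid 2). It gave 0 to 4 in the embryo against UF (0 without embryo 1, 4 without embryo 4), 3 to 10 in YS fluid against UF (3 without YS fluid 2) and 4 to 9 in the embryo against YS fluid (4 without YS fluid 2). Among the named members, calls in YS fluid against endometrium were also lost without other libraries for eca-miR-323-3p (1.85 to 2.08, without pregnant endometrium 2, 3 or 4 or YS fluid 1 or 3), eca-miR-487a (2.36 and 2.37, without YS fluid 3 or 4) and eca-miR-411 (-2.28, without pregnant endometrium 5). In YS fluid against UF this held for eca-miR-487b (2.46 to 3.03, without pregnant UF 1, 2, 3 or 4), in the embryo against YS fluid for eca-miR-379 (-2.64 and -2.70, without embryo 2 or 5), and in the embryo against UF for eca-miR-379 (-2.06 to -1.41, without any embryo or pregnant UF 2, 4 or 5) and eca-miR-409-3p (-1.69, without embryo 1).

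Changes of sign were these. Between pregnant and cyclic endometrium eca-miR-379 became -0.13 with library totals only and ranged from -0.20 to 0.28 without 1 mare, and eca-miR-411 became 0.041 in the fit of all libraries and 0.13 with no replicate block. Between pregnant and cyclic UF eca-miR-411 became 0.26 in the fit of all libraries, 0.24 when thinned and 0.40 with no replicate block, and without 1 mare eca-miR-379 ranged from -0.20 to 0.91, eca-miR-409-3p from -0.86 to 0.34 and eca-miR-411 from -0.47 to 0.61. The pregnancy effect on eca-miR-409-3p in UF against endometrium became 0.15 with RLE size factors, 0.13 with library totals only, 0.15 with DESeq2, 0.067 with known miRNAs only and 0.084 with no replicate block, and ranged from -0.66 to 1.24 without 1 mare. In YS fluid against endometrium eca-miR-409-3p became 0.35 with RLE size factors, 1.52 with library totals only, 0.16 with filterByExpr, 0.32 with DESeq2, 0.12 with known miRNAs only and 2.20 when thinned, and eca-miR-380 ranged from -0.0030 to 3.53 without 1 library. In YS fluid against UF eca-miR-487b ranged from -0.055 to 3.20.

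With the mare as a block in comparisons of compartments, eca-miR-380 (1.22, FDR 0.238) and eca-miR-323-3p (1.66, FDR 0.114) were no longer called in YS fluid against endometrium and eca-miR-409-3p was called lower (-1.74, FDR 0.022). In YS fluid against UF eca-miR-409-3p (1.61, FDR 0.104) and eca-miR-487b (1.87, FDR 0.13) lost their call, as did eca-miR-379 in the embryo against YS fluid (-2.17, FDR 0.0779). The block changed no other named call.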

Other observations

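eca-miR-431 and eca-miR-410 are named here after their values were seen, and only their levels are described. eca-miR-431, an upstream member that lies opposite RTL1, received 21 of its 28 reads in YS fluid, at 264 and 1314 CPM in fluids 1 and 2 and none in the others. The embryos 2 and 4 held 22.3 and 69.3 CPM, 3 endometrium libraries held at most 6.94 CPM, and UF held none. In the downstream group eca-miR-410 held 132 and 1176 CPM in YS fluids 1 and 2 and 22.3 and 104 CPM in embryos 2 and 4, against 2.96 to 41.7 CPM in pregnant endometrium.

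The ratio of eca-miR-432 to eca-miR-127, neighbours in the locus, was 0.12 to 0.51 in the 9 endometrium libraries and 5, 6.18, 1.5, 4 and 0.67 in the 5 YS fluids. It was 0.23 to 2.0 in the 9 UF libraries and 0 to 1.33 in the 4 embryos with a read of eca-miR-127, ranges that overlap that of YS fluid. This ratio does not depend on the scaling between libraries, and it was chosen after the values were seen. In YS fluids 1 to 5 it rests on 10 and 2, 105 and 17, 6 and 4, 4 and 1, and 2 and 3 reads of eca-miR-432 and eca-miR-127.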
